A study of Homo sapiens with 8 samples.

Results

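Krüppel-like factors (KLFs) are zinc finger transcription factors, and 8 of them, KLF2, KLF3, KLF4, KLF6, KLF10, KLF11, KLF13 and KLF16, were followed here by name through a labelling and wash-out experiment, among 15380 genes with at least 1 read. THP-1 is a human acute myeloid leukaemia line of monocytic type; 7 cultures received 30 µM 4-thiouridine (4sU, a uridine analogue that enters newly made RNA) for 12 h, with fresh medium every 3 h, were washed in cold buffer and then chased in medium with 3 mM uridine for 0 h, 20 min, 40 min, 1 h, 2 h, 8 h or 12 h. An 8th library came from THP-1 cells that received no 4sU, and the labels do not say whether those cells had the same medium changes and washes. RNA was alkylated so that 4sU is read as C, 3′ ends were sequenced (SLAM-seq), and the deposited tables give, for each 3′ UTR segment, all reads and the reads counted as labelled. All cells are from 1 line with no drug or genetic change, and each condition is 1 library, so a difference between any 2 libraries has no replicate check.

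KLFs share 3 zinc fingers at the C-terminus that bind GC-rich and CACCC sequences, and differ in the N-terminal part that recruits other proteins. KLF2, KLF4 and KLF6 belong to the group that recruits acetyltransferases and mostly activates, KLF10, KLF11, KLF13 and KLF16 to the group that binds the SIN3A co-repressor, and KLF3 to the group that binds the co-repressor CtBP. In monocytes and macrophages KLF4 is known for promoting monocytic differentiation, KLF2 for restraining inflammatory activation and KLF6 for promoting it, and several KLF mRNAs are known to respond within an hour or so to serum or growth factors and to be short-lived.

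Libraries held between 8301033 and 11224018 gene reads, except the one without 4sU, with 2916043. Labelled reads made up 30.6% of gene reads at 0 h and 27.1% at 2 h, and then 10.8% (8 h) and 5.53% (12 h), against 0.0121% without 4sU. All 12 monocytic markers fixed for the check of the cell type had reads (summed level 1895 to 3392 CPM, reads scaled to a common library total), while lymphoid, erythroid and epithelial markers summed to at most 7.93, 1.35 and 1.75 CPM in any library. Much of the monocytic sum came from single genes, such as CEBPA (2602 CPM without 4sU) and ELANE (1262 CPM at 0 h). Others were low, with MPO at 2.27 CPM at 0 h and CD14 at 2.76 CPM without 4sU. CPM are scaled by edgeR's TMM method. They count transcript 3′ ends and so do not grow with transcript length. Intervals are 95% and exact, and cover counting error only.

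The 8 mRNAs fell into 4 time courses after the wash. KLF2, KLF4 and KLF6 were 3.34- to 5.67-fold higher at 1 h than at 0 h and under their 0 h level at 8 h (for KLF4 within counting error). In RNA from bulk cultures, fewer cells with an mRNA and less of it per cell cannot be told apart. KLF10 and KLF11 had their highest level at 2 h, KLF3 stayed level to 2 h and was lower afterwards, and KLF13 and KLF16 had their highest levels at 12 h. A level at least 2-fold higher at 1 h than at 0 h was seen for 0.986% of the 10553 genes with a mean of at least 20 reads, and for 3 of the 8 KLFs (KLF2, KLF4 and KLF6). The median ratio was 0.966 over the 8 and 0.996 over all genes, so the other 5 did not share the early rise.

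**Figure D1:**
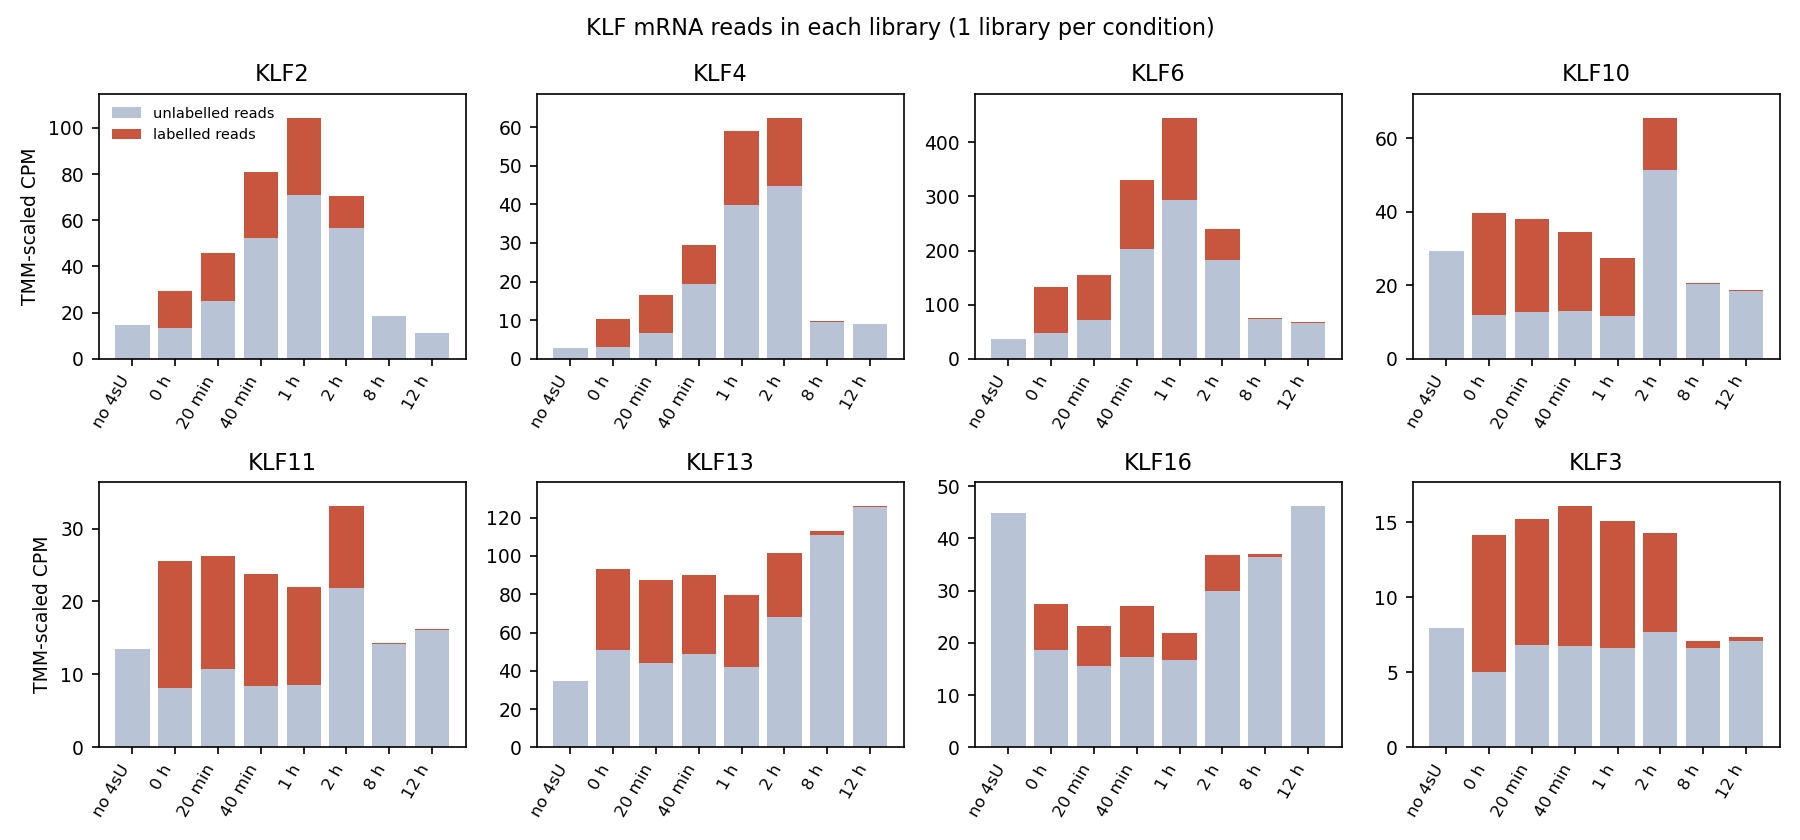
Level of each KLF mRNA in every library (TMM-scaled CPM, linear axis that differs between panels), with unlabelled reads in grey and labelled reads in red; each bar is 1 library. KLF2 and KLF6 are tallest at 1 h, KLF4 at 2 h after 59.0 CPM at 1 h, KLF10 and KLF11 at 2 h, and KLF13 and KLF16 at 12 h.

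The activator group comes first. KLF2 is encoded on chromosome 19, and its counted 3′ UTR segment starts at position 16437843 in hg19 on the plus strand. In the order no 4sU, 0 h, 20 min, 40 min, 1 h, 2 h, 8 h and 12 h, which holds for every series of 8 values here, KLF2 stood at 14.8, 29.3, 46.0, 80.8, 104, 70.6, 18.5 and 11.3 CPM. It was higher in each library up to 1 h than in the one before, and its 12 h level was the lowest of the 8. The 1 h level was 3.56-fold that at 0 h (interval 3.09 to 4.12).

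KLF4, a reprogramming factor and a driver of monocytic differentiation, has its segment at 110247133 on chromosome 9 (hg19, minus strand). Its levels were 2.76, 10.4, 16.6, 29.4, 59.0, 62.5, 9.84 and 9.14 CPM, the widest range of the 8 KLFs (4.50 on the log2 scale). The log2 ratio to 0 h was 2.50 at 1 h (5.67-fold, 4.51 to 7.20) and 2.59 at 2 h (interval of the fold 4.78 to 7.61), and these intervals overlap, so the peak cannot be placed between the 2 libraries. The lowest value rests on 8 reads in the library without 4sU.

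KLF6, widely expressed and the most abundant of the 8 in each library from 0 h to 2 h, has its segment at 3818188 on chromosome 10 (hg19, minus strand). Its levels were 36.9, 134, 156, 330, 446, 241, 75.6 and 67.3 CPM. It was highest at 1 h, 3.34-fold above 0 h (3.12 to 3.57), and at 20 min it was only 1.16-fold above (1.07 to 1.26), where KLF2 was already at 1.57 (1.33 to 1.85) and KLF4 at 1.60 (1.22 to 2.11).

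Most of the early increase was in unlabelled reads. From 0 h to its highest library, unlabelled reads made up 76.5% of the rise in CPM for KLF2, 78.9% for KLF6 and 79.8% for KLF4. Unlabelled KLF4 was 12.8-fold higher at 1 h than at 0 h (8.62 to 19.9), unlabelled KLF6 6.22-fold (5.59 to 6.94) and unlabelled KLF2 5.33-fold (4.35 to 6.58).

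Labelled reads also increased after the label was removed. Labelled KLF4 at 1 h was 2.61-fold the 0 h value (1.94 to 3.56), labelled KLF2 2.10-fold (1.71 to 2.60) and labelled KLF6 1.76-fold (1.61 to 1.93). In read numbers, KLF6 had 723 labelled reads at 0 h, 1159 at 40 min, 1335 at 1 h, 526 at 2 h and 14 at 8 h. A labelled level at least 2-fold higher at 1 h than at 0 h was found for 0.261% of 8824 genes, among them KLF2 and KLF4. Labelled KLF4 was still 2.44-fold up at 2 h (1.81 to 3.33), while labelled KLF6 was down to 0.677 of its 0 h level (0.604 to 0.759).

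**Figure D2:**
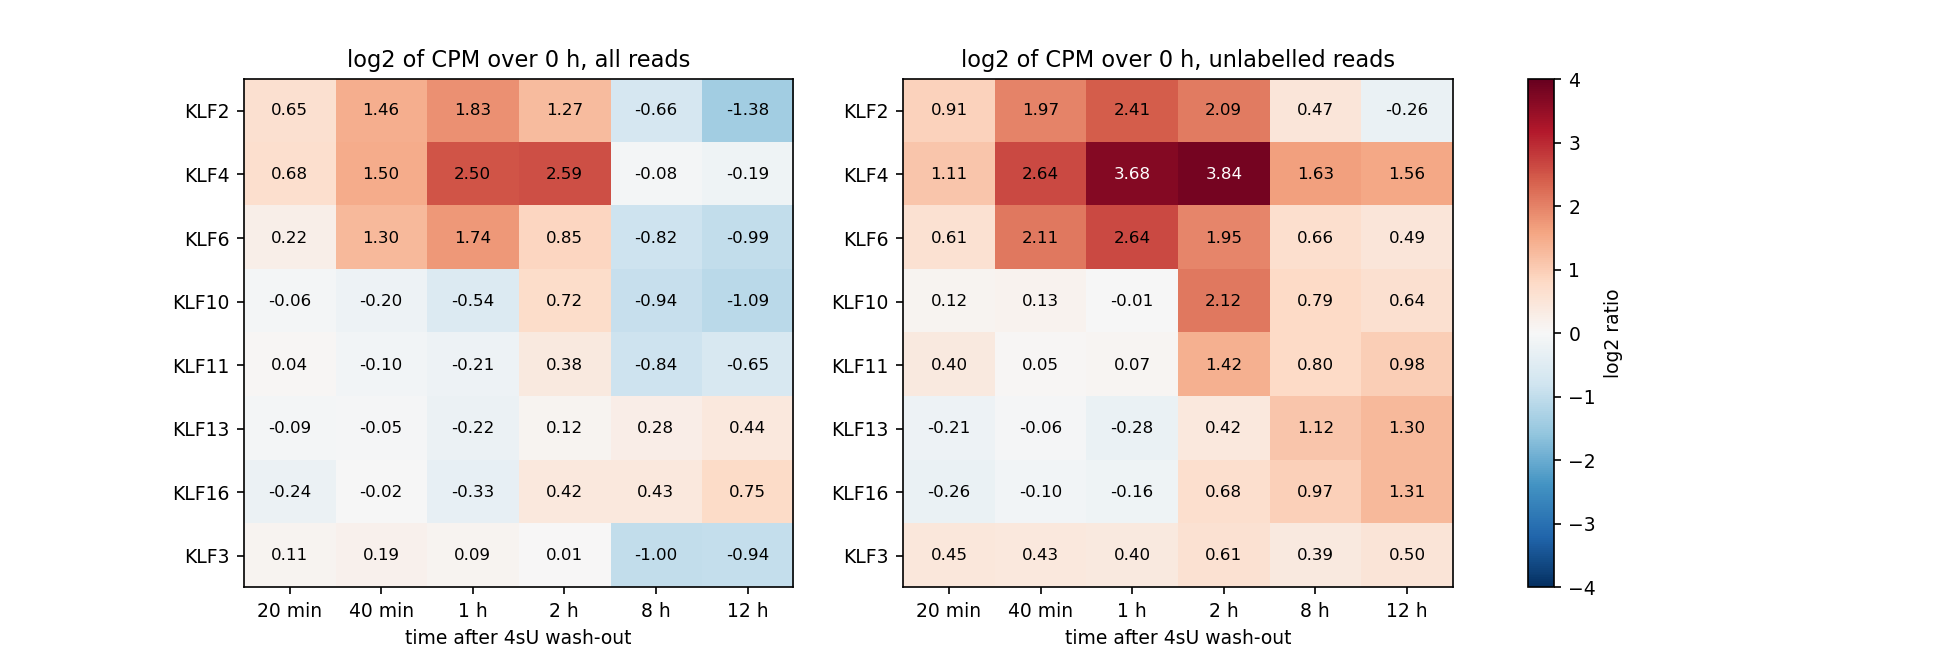
log2 ratio of each chase library to the 0 h library for all reads (left) and unlabelled reads (right) of the 8 KLFs; red is higher and blue lower than at 0 h. The strongest red is unlabelled KLF4 at 2 h (3.84), and KLF10 at 2 h is at 0.72 for all reads and 2.12 for unlabelled reads.

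The promoters of this trio are shown because their mRNAs rose together, with that of KLF11 for contrast. Promoters of 300 bases, 250 before and 50 after the start, were taken from RefSeq (GRCh38.p14) for 6 of the 8 KLFs. KLF3 had no promoter entry, and the promoter of KLF10 was not examined. Capitals mark matches on either strand to TGACG (the core of the cAMP response element, CRE), TGACGTCA (the full CRE, which holds TGACG on both strands), the MEF2 site and the CArG box of serum response factor.
KLF2, chr19:16324576-16324875, plus strand: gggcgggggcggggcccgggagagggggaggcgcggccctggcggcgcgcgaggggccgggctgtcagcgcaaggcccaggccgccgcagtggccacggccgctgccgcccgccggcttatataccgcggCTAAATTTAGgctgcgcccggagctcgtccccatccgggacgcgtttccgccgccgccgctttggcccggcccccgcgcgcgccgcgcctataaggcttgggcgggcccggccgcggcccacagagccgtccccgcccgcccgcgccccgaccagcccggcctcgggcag
KLF4, chr9:107489720-107490019, minus strand: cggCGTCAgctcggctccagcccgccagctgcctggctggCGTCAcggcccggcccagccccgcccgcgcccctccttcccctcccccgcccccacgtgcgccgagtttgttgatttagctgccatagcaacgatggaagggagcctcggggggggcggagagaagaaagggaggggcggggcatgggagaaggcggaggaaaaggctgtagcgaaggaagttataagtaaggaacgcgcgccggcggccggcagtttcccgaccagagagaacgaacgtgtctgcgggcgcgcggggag
KLF6, chr10:3785160-3785459, minus strand: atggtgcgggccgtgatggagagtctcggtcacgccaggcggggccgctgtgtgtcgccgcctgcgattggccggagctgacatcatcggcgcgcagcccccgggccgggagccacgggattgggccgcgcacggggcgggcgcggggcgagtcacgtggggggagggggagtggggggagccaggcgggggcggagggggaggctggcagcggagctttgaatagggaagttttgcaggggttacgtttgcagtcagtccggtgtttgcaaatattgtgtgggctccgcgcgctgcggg
KLF11, the second of its 2 promoters, chr2:10043971-10044270, plus strand: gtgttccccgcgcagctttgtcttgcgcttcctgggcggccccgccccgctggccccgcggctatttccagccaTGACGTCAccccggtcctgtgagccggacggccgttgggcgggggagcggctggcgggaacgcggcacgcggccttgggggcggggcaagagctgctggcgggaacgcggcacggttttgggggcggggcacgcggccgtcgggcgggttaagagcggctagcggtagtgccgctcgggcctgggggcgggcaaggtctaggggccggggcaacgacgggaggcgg

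KLF2 held 1 match to the MEF2 site, which 0.572% of 35116 promoters of this length hold. KLF4 held 2 matches to TGACG, found in 24.6% of promoters, KLF6 held none of the 4 motifs, and this window of KLF11 held TGACGTCA, found in 1.85%. The other KLF11 promoter held none of the 4 motifs, while KLF13 and KLF16, which did not rise early, held 1 and 2 matches to TGACG. None of the windows examined held a CArG box, present in 1.29% of promoters. GGGCGG, a GC box of the kind KLF and SP proteins bind, was in all 4, of the printed windows, with 6 copies in KLF2, 4 in KLF4, 2 in KLF6 and 7 in KLF11, against 45.0% of promoters with at least 1. A match to a motif in these windows is a match of letters and shows no binding.

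The SIN3A-binding group split into a 2 h pair and a late pair. KLF10, first described as a TGF-β-inducible early gene, has its segment at 103661007 on chromosome 8 (hg19, minus strand). Its levels were 29.3, 39.7, 38.0, 34.5, 27.4, 65.6, 20.7 and 18.6 CPM. It was lower at 1 h than at 0 h (ratio 0.690, 0.582 to 0.817) and higher at 2 h (1.65, 1.44 to 1.89), so the increase lay between these libraries.

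The rise of KLF10 between 0 h and 2 h was in unlabelled reads. Unlabelled KLF10 was level up to 1 h (0.993 of 0 h, 0.746 to 1.32) and 4.33-fold up at 2 h (3.48 to 5.44), while its labelled level decreased to 0.561 at 1 h (0.451 to 0.696) and 0.511 at 2 h (0.409 to 0.637). The labelled share of its reads went from 57.1% at 1 h (50.6 to 63.4) to 21.7% at 2 h (18.5 to 25.3).

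KLF11, its closest relative and also induced by TGF-β, has its segment at 10192635 on chromosome 2 (hg19, plus strand). Its levels were 13.5, 25.5, 26.2, 23.8, 22.0, 33.1, 14.2 and 16.3 CPM, with the same timing as KLF10 and a smaller swing. The 2 h ratio was 1.30 for all reads (1.08 to 1.55) and 2.68 for unlabelled reads (2.03 to 3.59), and at 1 h unlabelled KLF11 was at 1.05 (0.748 to 1.48). Among all genes, 1.95% were at least 2-fold higher at 2 h than at 0 h; KLF2 and KLF4 were among them, KLF10 and KLF11 were not.

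KLF13, known as an activator of the chemokine gene CCL5 in T cells, has its segment at 31664503 on chromosome 15 (hg19, plus strand). Its levels were 34.8, 93.2, 87.4, 90.2, 79.8, 102, 113 and 126 CPM. From 1 h on each library was higher than the one before, and from 8 h KLF13 was more abundant than KLF6. The 12 h level was 1.35-fold that at 0 h (1.23 to 1.48) and 3.62-fold that without 4sU (2.95 to 4.48). The latter difference was not even along the 3′ UTR, whose start is also counted as a segment of its own (described below). From no 4sU to 12 h this start went from 6.21 to 61.4 CPM, and the rest from 28.6 to 64.7 CPM.

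KLF16, a small family member that binds the same GC-rich boxes, has its segment at 1852400 on chromosome 19 (hg19, minus strand). Its levels were 44.8, 27.4, 23.2, 27.1, 21.8, 36.7, 36.9 and 46.2 CPM. It was the only 1 of the 8 with a lower level at 0 h than without 4sU (ratio 0.611, 0.491 to 0.764), and at 12 h the ratio was 1.03 (0.843 to 1.26). Unlabelled KLF16 at 12 h was 2.47-fold its 0 h level (2.05 to 2.99), as was unlabelled KLF13 (2.47, 2.21 to 2.77).

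KLF3, a repressor that recruits CtBP, has its segment at 38698885 on chromosome 4 (hg19, plus strand) and was the least abundant of the 8 at 8 h and 12 h. Its levels were 7.93, 14.1, 15.2, 16.1, 15.1, 14.3, 7.08 and 7.34 CPM. The 5 libraries from 0 h to 2 h did not differ beyond counting error (the interval of the ratio to 0 h was 0.887 to 1.46 at 40 min, the highest library), and those at 8 h and 12 h were about at the level without 4sU, at 0.501 (0.376 to 0.667) and 0.520 (0.378 to 0.709) of 0 h. Unlabelled KLF3 was 1.53-fold up at 2 h (1.03 to 2.30).

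Trends over the 7 chase libraries were tested with edgeR's quasi-likelihood test, linear in hours, with Benjamini-Hochberg adjustment over 10643 genes. At an adjusted p under 0.05, 27.4% of genes rose and 23.9% fell; of the KLFs, 2 rose and 5 fell. KLF13 rose by 0.56 ± 0.11 (SE) on the log2 scale over 12 h (edgeR adjusted p = 0.00105) and KLF16 rose by 0.87 ± 0.19 (edgeR adjusted p = 0.00284). KLF3 fell by 1.24 ± 0.21 (edgeR adjusted p = 0.000536), KLF2 fell by 2.64 ± 0.62 (0.00413) and KLF6 fell by 2.19 ± 0.58 (0.00839). Adjusted p was 0.0168 in edgeR for KLF11 (log2 change −0.82 ± 0.25) and 0.028 for KLF10 (−1.17 ± 0.40), and KLF4 did not pass (−2.02 ± 0.92, 0.0856).

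A straight line cannot describe a peak at 1 h to 2 h. With a spline in log2(hours + 1), edgeR called 51.6% of genes and all 8 KLFs, with adjusted p from 2.16e-06 (KLF2) and 1.04e-05 (KLF4) to 0.0211 (KLF10). This spline is a smooth curve that can bend but cannot follow every shape, such as the step of KLF10 between 1 h and 2 h. The falls of the linear test rest on the late libraries: over 0 h to 2 h alone the log2 change was 1.07 for KLF2, 2.43 for KLF4, 0.97 for KLF6, 0.79 for KLF10 and 0.39 for KLF11, of which KLF4 passed (edgeR adjusted p = 0.0013). Without the 12 h library the linear test lost KLF2, KLF6, KLF10 and KLF16 (edgeR adjusted p 0.0898, 0.0854, 0.211 and 0.0532), and without the 8 h library it lost KLF10 and KLF11 (0.109 and 0.0703). Without the 0 h library KLF4 passed (−2.50 ± 0.75, edgeR adjusted p = 0.0183).

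Against 0 h, 4.89% of genes were at least 2-fold lower at 12 h, among them KLF2 (0.385, 0.302 to 0.488) and KLF10 (0.469, 0.387 to 0.567), with KLF6 just outside at 0.503 (0.455 to 0.556). KLF4 at 12 h was near its 0 h level (0.878, 0.641 to 1.20).

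The library without 4sU gives the level in cells not exposed to the analogue. KLF4, KLF6 and KLF13 were at least 2-fold higher at 0 h than there (3.77, 3.62 and 2.68), as were 20.9% of all genes, and KLF2 was just under that limit at 1.98 (1.42 to 2.80). For KLF13 the difference was larger in the start of its 3′ UTR (6.21 against 50.1 CPM at 0 h) than in the rest (28.6 against 43.1 CPM). At 12 h KLF4 (3.31, 1.60 to 7.93) and KLF13 were still at least 2-fold higher, as were 18.5% of genes, and KLF6 stood at 1.82 (1.48 to 2.26). KLF10 was lower at 12 h than without 4sU (0.635, 0.486 to 0.835), and the intervals of KLF2, KLF3, KLF11 and KLF16 held 1. Exposure to 4sU and any difference in medium handling cannot be told apart here.

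The labelled share of reads depends on how much of an mRNA was made during the pulse and on how often a 4sU-containing read is recognised, and so is not the fraction of new RNA. At 0 h it was 70.2% for KLF10 (64.9 to 75.1), 70.1% for KLF4 (59.4 to 79.5), 68.1% for KLF11, 64.7% for KLF6, 64.4% for KLF3, 54.7% for KLF2, 45.3% for KLF13 (41.8 to 48.9) and 31.9% for KLF16 (25.9 to 38.3), against 30.6% of all gene reads. That last value pools reads, so abundant mRNAs weigh most in it, and it is not the share of a typical gene. At 12 h none of the 8 had more than 3.08% labelled reads, and KLF4 and KLF16 had 0 labelled reads, which allows a share of up to 3.70% and 0.733% by the limit of 3 reads over the total, and up to 4.45% and 0.898% by the exact interval. No labelled read of any KLF was counted without 4sU, where KLF16, with the most reads, allows up to 2.31% by the first limit and 2.80% by the second.

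The share at 1 h, given here without a test between genes, did not follow the groups throughout. In KLF2, KLF4 and KLF6 it had dropped to 32.2%, 32.3% and 34.2% at 1 h. In KLF10, KLF11, KLF13 and KLF3 it was still 57.1%, 61.1%, 47.2% and 56.1% at 1 h, but in KLF16, of the same group as KLF10, it was 23.6% (17.7 to 30.2) after 35.9% at 40 min. For KLF13 the intervals of 0 h, 20 min, 40 min and 1 h all overlapped. The decline over 7 libraries passed edgeR's quasi-likelihood test for 95.3% of 9402 genes and for all 8 KLFs (edgeR adjusted p from 4.12e-13 for KLF13 to 5.73e-09 for KLF3). Over 0 h to 2 h alone KLF3 did not pass (slope −0.21 ± 0.11 per hour on the log2 scale, edgeR adjusted p = 0.159).

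**Figure D3:**
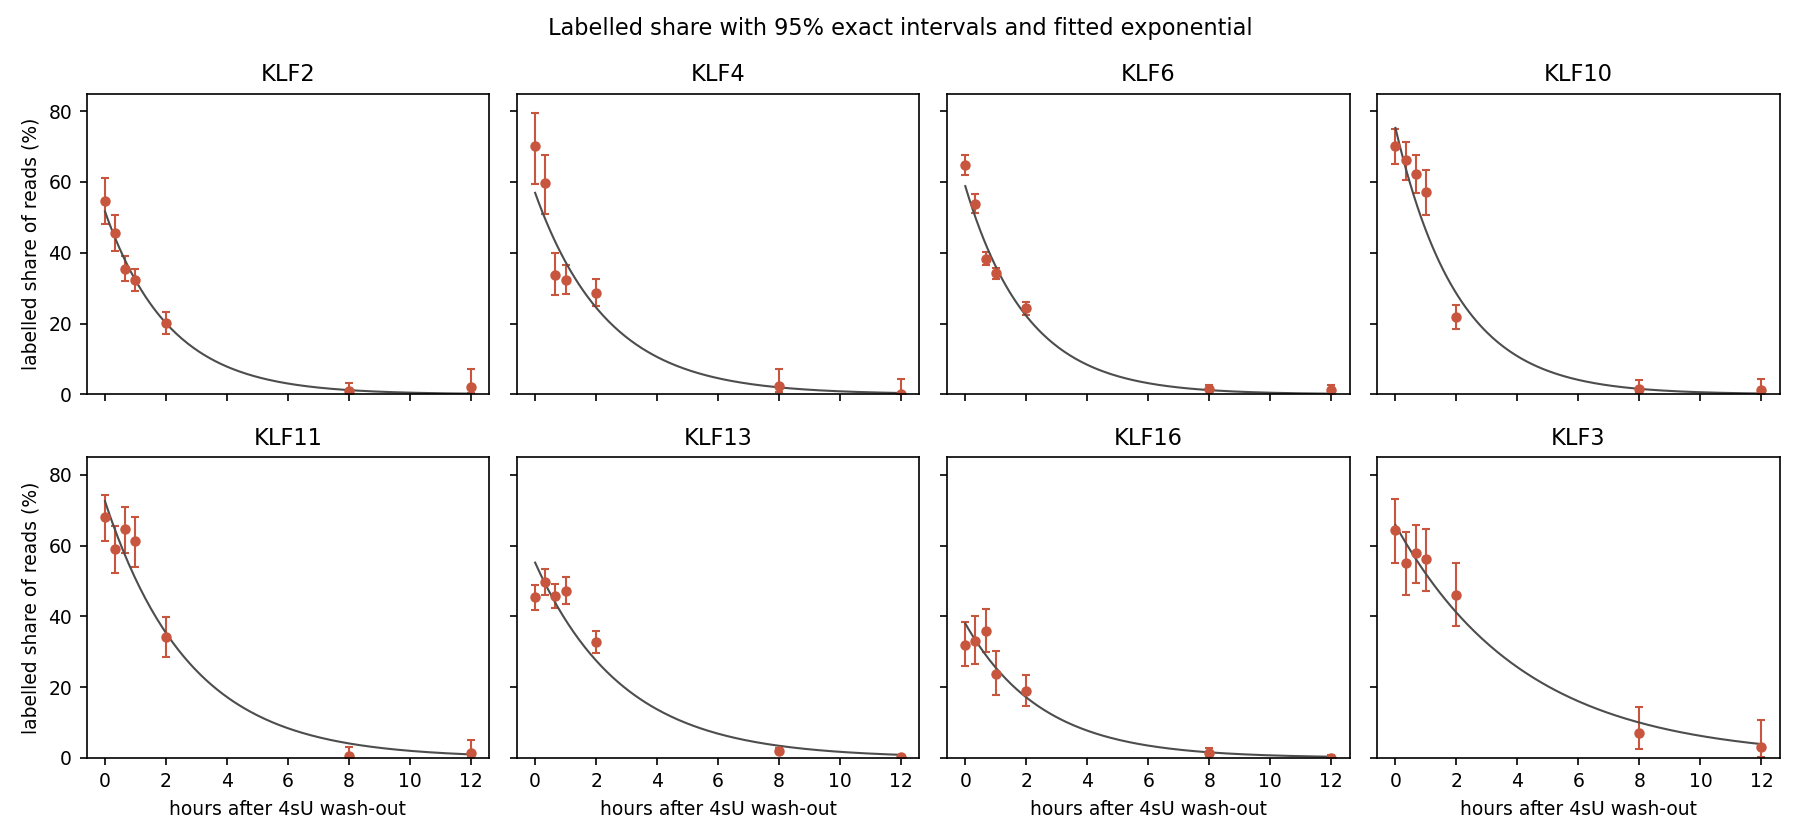
Labelled share of reads (%) of each KLF against hours after the wash, with exact 95% intervals (counting error) and the fitted exponential (line). KLF2 and KLF6 drop from the first library on, whereas KLF10, KLF11 and KLF13 lie above the line at 1 h and KLF10 is under it at 2 h.

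An exponential fitted to the share gave half-lives in the order KLF6 1.42 ± 0.25 h (SE), KLF10 1.42 ± 0.26 h, KLF2 1.47 ± 0.25 h, KLF4 1.64 ± 0.43 h, KLF16 1.74 ± 0.24 h, KLF11 1.92 ± 0.35 h, KLF13 1.99 ± 0.32 h and KLF3 2.94 ± 0.38 h. Without the 2 h library KLF4 came to 1.03 ± 0.37 h and KLF10 to 1.91 ± 0.27 h. Neighbours in this order do not differ beyond their 95% intervals. The median of the 8 was 1.69 h and that of 8831 genes with a resolved half-life 2.72 h. Of those genes, 1.72% had a shorter half-life than KLF6, 17.2% a shorter one than KLF13 and 56.4% a shorter one than KLF3, and 7 of the 8 KLFs were under the median of all genes. Scatter about the fitted curve, relative to counting error, was 21.0 for KLF6, 15.8 for KLF13 and 8.94 for KLF10, against 3.74 for the median gene. It was under that median for KLF3 (1.07) and KLF16 (2.34), and the standard errors are widened for it.

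The half-life of a share is that of the RNA only while the level is constant, and for these mRNAs it was not. In KLF2, KLF4 and KLF6 both unlabelled and labelled reads were higher at 1 h than at 0 h, so the drop in share by 1 h went with more labelled reads, not fewer. At 20 min, labelled KLF6 was still at 0.969 of its 0 h level (0.872 to 1.08), while its share had gone from 64.7% to 53.9%. Fitted to labelled CPM from 1 h to 12 h, after the increase, half-lives were 0.97 ± 0.36 h for KLF2, 0.96 ± 0.36 h for KLF6, 1.33 ± 0.38 h for KLF4, 1.40 ± 0.38 h for KLF11, 1.52 ± 0.36 h for KLF10, 1.71 ± 0.26 h for KLF13, 1.84 ± 0.22 h for KLF3 and 1.91 ± 0.66 h for KLF16. With the share from 0 h to 2 h alone, KLF13 came to 4.16 ± 1.71 h and KLF3 to 4.84 ± 1.87 h.

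**Figure D4:**
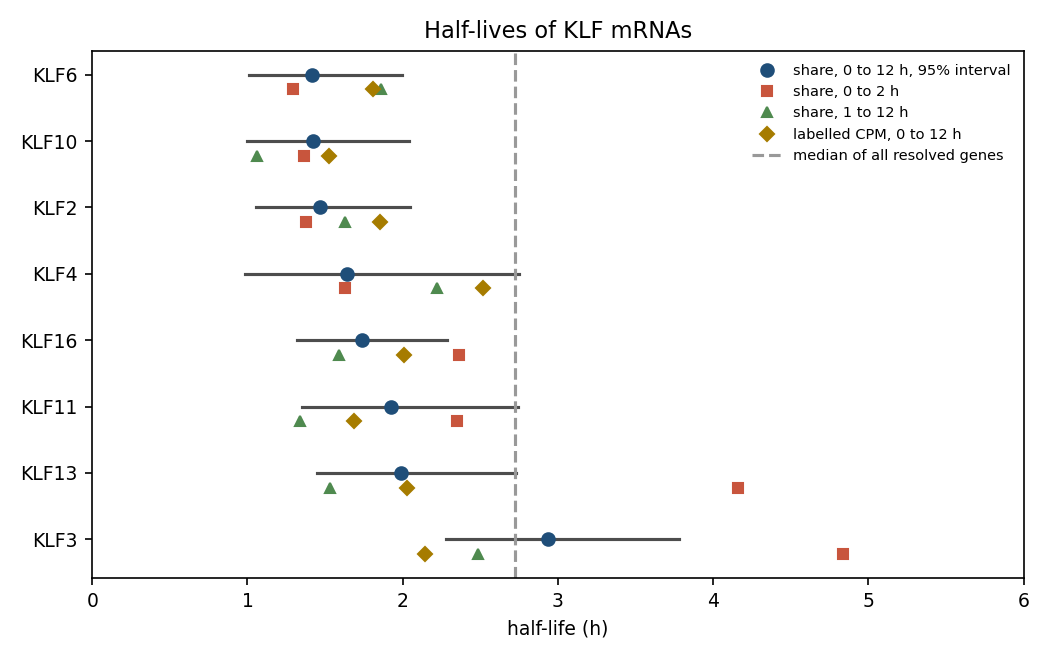
Half-life (h) of each KLF mRNA from the labelled share over 0 h to 12 h (circles, lines are 95% intervals), with the estimates from 0 h to 2 h, from 1 h to 12 h and from labelled CPM as other symbols, and the median of all resolved genes (2.72 h) as a dashed line. The intervals of neighbours overlap, and KLF13 and KLF3 move furthest right when only the first 2 h are used.

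AU-rich elements are 3′ UTR sequences built on ATTTA that decay factors such as ZFP36 bind. The core TATTTAT was found on the sense strand in the annotated 3′ UTR of 4 of the 8 KLFs (KLF2, KLF6, KLF11 and KLF16), against 32.1% of 14935 genes, and TTATTTATT, which contains it, in KLF16 alone, against 8.45%. These shares are not matched for length: the 4 UTRs have 846, 3546, 2332 and 2063 bases, against a median of 1114 over all genes. The 4 sites are shown, as the elements nearest to a known decay signal in these mRNAs, with the motif in capitals.
KLF2: actgtgactggTATTTATtggacccagag
KLF6: tatgtttctctTATTTATgccttgaggac
KLF11: ttttagaaaaaTATTTATattgttggtgc
KLF16: gaatcctggcTTATTTATTttcctctgtc
KLF2 had 3.55 ATTTA per 1000 bases of its 3′ UTR, the most of the 8, and KLF13 0.892, the fewest, beside a median of 1.59 over all genes. KLF4 and KLF10, with half-lives close to that of KLF2, held no TATTTAT (2.22 and 2.21 ATTTA per 1000 bases). In the last 500 bases of the transcript, ATTTA was present in 7 of the 8 KLFs and in 56.0% of 15257 genes, TATTTAT in none and in 14.3%, and the Pumilio motif TGTANATA in KLF2 (2 copies) and in 12.4%. Over the whole 3′ UTR, TGTANATA also occurred in KLF3, KLF6, KLF13 and KLF16. KLF10 was not examined for it there, and no share over all genes was computed.

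KLF13 had a second counted segment, nested in the first and starting at the same base, whose transcript has an annotated 3′ UTR of 147 bases against 5603 for the other. Without 4sU, 17.8% of KLF13 reads lay in that first part (10.9 to 26.7), and at 0 h 53.8% did (50.2 to 57.3), with 41.1% to 53.8% over the chase. In CPM the first part went from 6.21 without 4sU to 50.1 at 0 h, while the rest went from 28.6 to 43.1. At 0 h 31.3% of the reads of the first part and 61.7% of those of the rest were labelled. T made up 24.5% of the bases of both over their whole length, but 34% of the last 500 bases of the longer transcript. Whether T content where the reads lie bears on the labelled share was not tested. The half-lives of the parts were 1.87 ± 0.35 h and 2.03 ± 0.30 h.

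**Figure D5:**
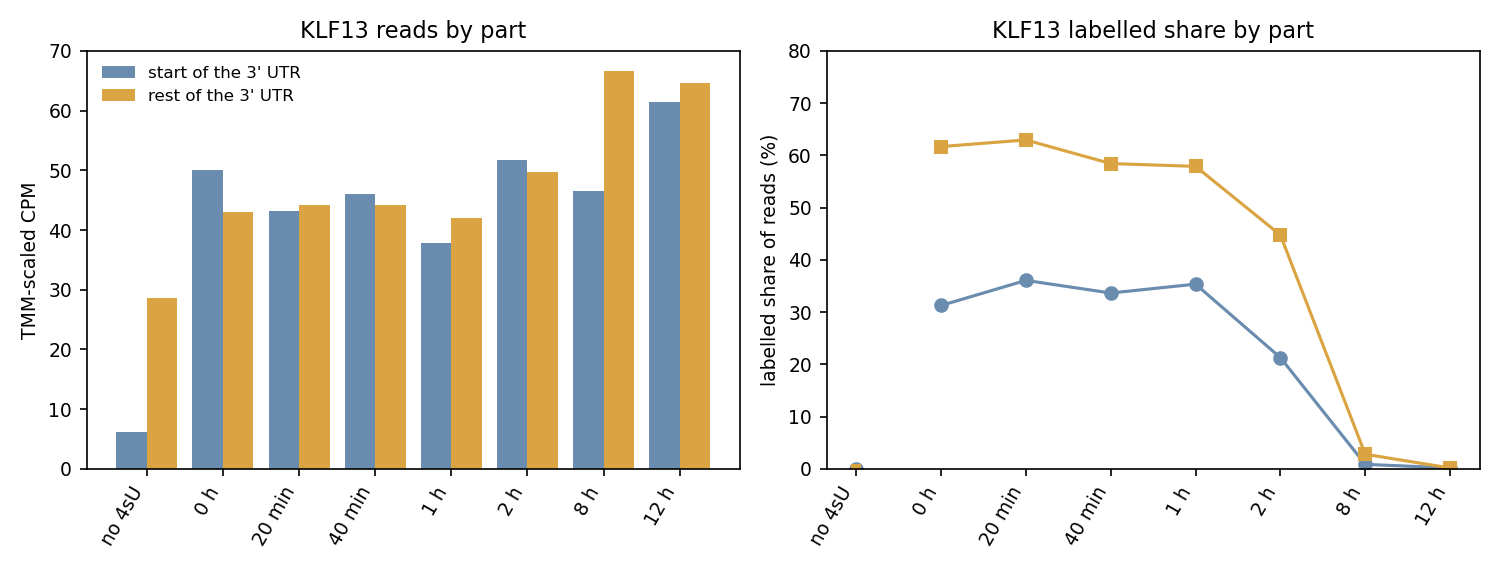
KLF13 reads in the start of its 3′ UTR (blue) and in the rest of it (yellow), as TMM-scaled CPM (left) and as labelled share (right), in each library. The start has 6.21 CPM without 4sU and 50.1 CPM at 0 h, and a lower labelled share than the rest from 0 h to 8 h.

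The genes with the most similar course over the 8 libraries, by the root-mean-square difference of centred log2 levels among 6072 genes with a mean of at least 200 reads, included other KLFs. The gene closest to KLF2 was KLF6 (0.34), followed by RGS2 (0.52), a regulator of G-protein signalling, and C16orf54 (0.55). For KLF6 they were KLF2, C16orf54 (0.39) and RGS2 (0.41), and for KLF4 they were RGS2 (0.37), C16orf54 (0.49) and KLF6 (0.54). Nearest to KLF10 were RHOBTB2 (0.24), DIDO1 and ELF1. KLF3 was closest to CCNE2 (0.08), which encodes cyclin E2, KLF11 to PDGFA (0.13), KLF13 to CAST (0.08), which encodes calpastatin, and KLF16 to RNF146 (0.12).

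Among 18 other KLF and SP genes, 15 had a read and 9 could be tested, of which 6 fell, none rose, and 3 did not pass. Those that fell were SP1, SP2, SP3, SP4 and SP9, all the SP genes tested, and of the KLFs KLF5 alone. KLF7, KLF9 (−0.44 ± 0.25) and KLF12 (−0.18 ± 0.34) did not pass. Of all genes tested, 27.4% rose and 23.9% fell. KLF5, an activator like KLF2 and KLF4, fell by 1.34 ± 0.51 on the log2 scale over 12 h (edgeR adjusted p = 0.0436) after 5.26, 7.99 and 11.4 CPM at 0 h, 1 h and 2 h. KLF7 was level (−0.03 ± 0.16), at 49.5, 60.7 and 62.1 CPM in the same libraries. All 8 of these genes that could be fitted had a resolved half-life, with a median of 2.11 h. KLF5, KLF7 and KLF9 had 1.20, 1.79 and 1.57 h and SP9 1.65 h. SP1, SP2, SP3 and SP4 had longer ones, 2.44, 2.68, 2.95 and 2.50 h.

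Of 14 co-repressors and co-activators of KLFs, 8 rose and 2 fell (all genes 27.4% and 23.9%). SIN3B rose by 1.81 ± 0.25 and its paralogue SIN3A, partner of KLF10, KLF11, KLF13 and KLF16, fell by 0.64 ± 0.15, as did FHL3, by 1.66 ± 0.21. CREBBP, an acetyltransferase, was at 0.02 ± 0.16. Of 10 genes of the ERK5-MEF2 pathway, which drives KLF2 and KLF4 in endothelial cells, 4 rose and 1 fell, with few genes to set against the 27.4% and 23.9% of all genes. MAP2K5, the kinase upstream of ERK5, rose by 1.46 ± 0.30 and MAP3K2 fell by 0.58 ± 0.12, and MEF2C changed least (0.09 ± 0.07).

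Of 11 TGF-β and SMAD genes, 1 rose and 5 fell, where 27.4% of all genes rose and 23.9% fell. SMAD3, which carries the TGF-β signal to the nucleus, rose by 2.09 ± 0.12, and SMAD2 was at −0.03 ± 0.10. Of 8 testable genes reported as KLF targets, 5 rose and none fell (27.4% and 23.9% of all genes). The monocyte receptor CD14 rose by 1.55 ± 0.17, from 20.6 CPM at 0 h to 65.7 CPM at 12 h, and MYC was at 0.08 ± 0.41. CD14 also stands in the list of 12 monocytic markers, of which 4 rose and 6 fell. Of 8 ubiquitin ligases and regulators that act on KLF proteins, 2 rose and 3 fell, a rising share near the 27.4% of all genes (23.9% fell). BTRC rose by 0.92 ± 0.25, WWP1 rose by 0.67 ± 0.15 and SMURF1 was at −0.19 ± 0.22. In the linear test, the median log2 change over 12 h was −1.21 for the 8 KLFs, beside 0.02 over all genes tested. It was −0.73 for the other KLF and SP genes, 0.34 for co-factors and 0.18 for the ERK5-MEF2 pathway. TGF-β genes were at −0.37 and reported targets at 0.51. These values come from a straight line, which an early peak makes steeper. At 12 h against 0 h, log2 ratios were −1.38 for KLF2, −0.19 for KLF4 and −0.99 for KLF6, where the line gave −2.64, −2.02 and −2.19. The median ratio of the 8 KLFs was 0.579, and that of all genes 0.994.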

How the data were processed

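The deposited tables hold raw read counts per 3′ UTR segment, all reads and those the authors counted as nascent (called labelled here), in 8 libraries with 1 column each. Per the labels' protocols, RNA was alkylated with iodoacetamide and sequenced from 3′ ends with the QuantSeq FWD kit, and fly S2 material was spiked in; spike-in counts were not used here. The submitters' processing notes name the builds hg19 and dm3, Trim Galore 0.6.5 and bcl2fastq 2.17.1.14. Aligner, counter and the number of conversions that makes a read labelled: not given in the sources used here.

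Transcript names of 64545 segments were matched to genes with GENCODE 29 (84.9% of transcripts matched). Each gene is represented by its segment with the largest summed count, and 85 genes with the same counts as another gene were left out; no KLF was among them. Segments are given by their start, as the files name it. edgeR 4.0.16 in R 4.3.3 (TMM, quasi-likelihood) tested total counts against hours (mean of at least 20 reads) and labelled counts against hours with the gene's own total as offset (mean of at least 50 and 20 labelled reads in all); DESeq2 1.42.0 was an alternative. With 1 library per time, the spread in these tests is the scatter about the fitted line, with 5 residual degrees of freedom. Half-lives come from a binomial fit (scipy 1.17.1) of share = background + amplitude × exp(−k × hours), with the standard error widened for scatter; a half-life was resolved when the decline passed the test, the fit gave at least 10 labelled reads at 0 h, and it lay between 0.25 and 24 h with a log-rate standard error no higher than 0.5. Ratios are of TMM-scaled CPM with exact conditional binomial intervals, and shares have Clopper-Pearson intervals. Scripts were tested on simulated counts with known changes. The KLFs, the lists and the tests were chosen with earlier results of these data known. Named genes are the 8 KLFs, up to 3 genes of most similar course for each, and from each list those with the largest and the smallest change and any that passed against the majority. Of the other KLF and SP genes, all that could be tested are named.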

Additional observations from a re-analysis of the deposited data

How the results depend on the processing

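No paired analysis was possible because each condition has 1 library and the labels give no replicate numbers. Of the alternative values of counts and medians, 71 stayed near the main value (counts within 1.5 times) and 4 moved; of those for single KLFs, 432 kept their direction and side of the threshold, or their value within its error, 12 lost the threshold, 2 gained it, 11 values moved and 5 changed sign. Over 0 h to 2 h alone, the decline of the label was called for 2994 genes in place of 8963, total levels for 551 in place of 5463, and total levels of 1 KLF (KLF4) in place of 7, while the label decline of KLF3 lost the threshold (edgeR adjusted p = 0.159); in that window the log2 change was positive for KLF2 (1.07), KLF4 (2.43), KLF6 (0.97), KLF10 (0.79) and KLF11 (0.39). Leaving out 1 library at a time gave 3 (without 12 h) to 8 (without 0 h) KLFs with a called total trend, and 8 of 8 with a called label decline each time; the cause was not tested. Scaling by library size alone raised the median log2 change of all genes from 0.02 to 0.18 and the share of rising among called genes from 53.4% to 68.1%; 2 KLFs then rose and 4 fell, KLF10 missing the threshold (edgeR adjusted p = 0.0541). The labelled CPM fit from 1 h to 12 h was added after labelled reads were seen to increase. Depth limits KLF4 without 4sU (8 reads) and every labelled share at 8 h and 12 h, which rest on 28 labelled reads or fewer per KLF.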
